A study of Homo sapiens with 4 samples.

Results

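The 9 genes described here are the chemokine ligands CCL3, CCL4, CCL5 and CXCL16 and the chemokine receptors CXCR3, CXCR4, CCR2, CCR7 and CCR10, out of 78932 genes in the count table, of which 19511 had enough counts to be tested. They were selected on their symbols with the counts of this same comparison already known, so their differences between the groups are given as a description. Whether a gene passed the fit over all genes is stated as part of that description, and nothing is concluded from how many passed. Each gene has 1 entry in the table. RNA-seq was performed on RPMI 8226, a human multiple myeloma cell line (the sample labels spell it RPMI82266), 72 hours after transfection. One group received 5 nM of an LNA ASO, an antisense oligonucleotide with locked nucleic acids, directed at CELF2 (2 libraries). CELF2 encodes a protein that binds RNA and acts on splicing and on the fate of mature transcripts. The other received a control LNA ASO, for which the labels give no dose (2 libraries). Both groups are bulk RNA of a single cell line with no further genetic change stated. The labels do not say whether the 2 libraries of a group came from separate cultures, or whether the number in a library's title counts replicates or oligonucleotides, so the errors and p-values speak only to how these libraries varied. In bulk RNA, fewer cells that express a gene and less of its RNA per cell cannot be told apart.

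Chemokines are small secreted proteins that guide cell migration by binding G protein-coupled receptors on the cell surface, which couple mainly to inhibitory G proteins and are then switched off by RGS proteins, receptor kinases and arrestins. Atypical receptors bind the same ligands without the usual G protein signal and remove them. In the bone marrow, CXCL12 made by stromal cells holds plasma cells in place through CXCR4. Myeloma cells themselves can secrete CCL3 and CCL4, which act on osteoclasts and their precursors and are known for their part in myeloma bone disease.

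The promoters of CXCR3 and of its ligands CXCL9 and CXCL10 are shown because receptor and ligands were all lower with the CELF2 ASO, and that of CCL3 because it had the highest fold among the 4 ligands of the 9 genes. The sequences are RefSeq's (GRCh38.p14), 5′ to 3′ on the strand of the gene, all on the minus strand. They come from chrX:71618518-71618611 for CXCR3, chr4:76007510-76007654 for CXCL9, chr4:76023498-76023639 for CXCL10 and chr17:36090170-36090243 for CCL3. CXCL9 and CXCL10 are shown from 20 bases before the match, CXCR3 and CCL3 from 100 bases before the start (for CCL3 the first of its 3 RefSeq starts). Each ends at the start, less the bases that the GENCODE 29 gene covers (6 for CXCR3 and 26 for CCL3). Capitals mark the match to an NF-kB motif (GGG, any 2 bases, T, any 2 bases, CC, on either strand).
CXCR3: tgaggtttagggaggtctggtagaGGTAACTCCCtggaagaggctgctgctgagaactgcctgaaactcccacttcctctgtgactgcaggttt
CXCL9: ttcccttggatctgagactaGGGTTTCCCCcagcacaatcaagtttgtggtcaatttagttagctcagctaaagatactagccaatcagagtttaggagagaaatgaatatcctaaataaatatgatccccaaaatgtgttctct
CXCL10: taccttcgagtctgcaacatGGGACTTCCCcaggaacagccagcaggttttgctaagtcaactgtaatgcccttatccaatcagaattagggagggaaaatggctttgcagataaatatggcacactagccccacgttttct
CCL3: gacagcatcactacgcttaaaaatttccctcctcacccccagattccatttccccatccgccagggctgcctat
The match began 76 bases before the start in CXCR3, 125 in CXCL9 and 122 in CXCL10. Of all 35116 RefSeq windows of 250 bases before a start, 19.7% held this motif, so a match is common. Among the other starts searched, CXCR4 held it 54 bases before the last of its 3 starts and CCL3 112 bases before the middle one of its 3. The AP-1 motif TGANTCA, present in 6.57% of windows, was found in CCR2, 212 bases before the start. The TATA box TATAAA, present in 10.7% of windows, began 29 bases before the first start of CCL3, 30 before a start of CXCR4 and 191 before that of CXCL9. The letters printed for CCL3 stop inside its box, and the box of CXCL9 lies before the letters printed. The cyclic AMP element TGACGTCA (1.65% of windows) and the ATF and CHOP composite TGATGNAAN (3.13%) had no match in these letters. All motifs were searched on both strands, and no match of one overlapped that of another. Of the 9 genes, 4 were in the promoter table (CCL3, CXCR3, CXCR4 and CCR2).

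The targeted gene, CELF2, was lower in both CELF2 ASO libraries. It had 1569 and 1165 counts with the CELF2 ASO, against 3583 and 3001 counts with the control ASO. This is 2.43-fold lower (log2 fold change -1.28 ± 0.09 SE, edgeR adjusted p = 2.88e-05). The libraries held 26061900 and 23599190 counts with the CELF2 ASO, against 29161298 and 24493148 with the control ASO. The replicates were less alike with the CELF2 ASO than with the control ASO, with a chi-square per degree of freedom over genes of 18.5 and 3.383, where sampling noise alone gives about 1. The comparison as a whole was broad. Of the genes tested, 55.5% passed an adjusted p of 0.05 in edgeR's quasi-likelihood test (27.5% higher with the CELF2 ASO, 27.9% lower). In 79.6% the groups did not overlap in CPM, the counts scaled to library size. Of the 9 genes, 8 were tested, and 6 of them passed, 3 higher (CCL3, CCL4 and CCR2) and 3 lower (CXCL16, CXCR3 and CXCR4). In 7 of the 8 the groups did not overlap, the exception being CCR10. Their median log2 fold change was 0.36, against 0.04 over all genes tested. The share that passed, 75.0%, and this median are read no further, since the genes were chosen on this comparison.

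**Figure D1:**
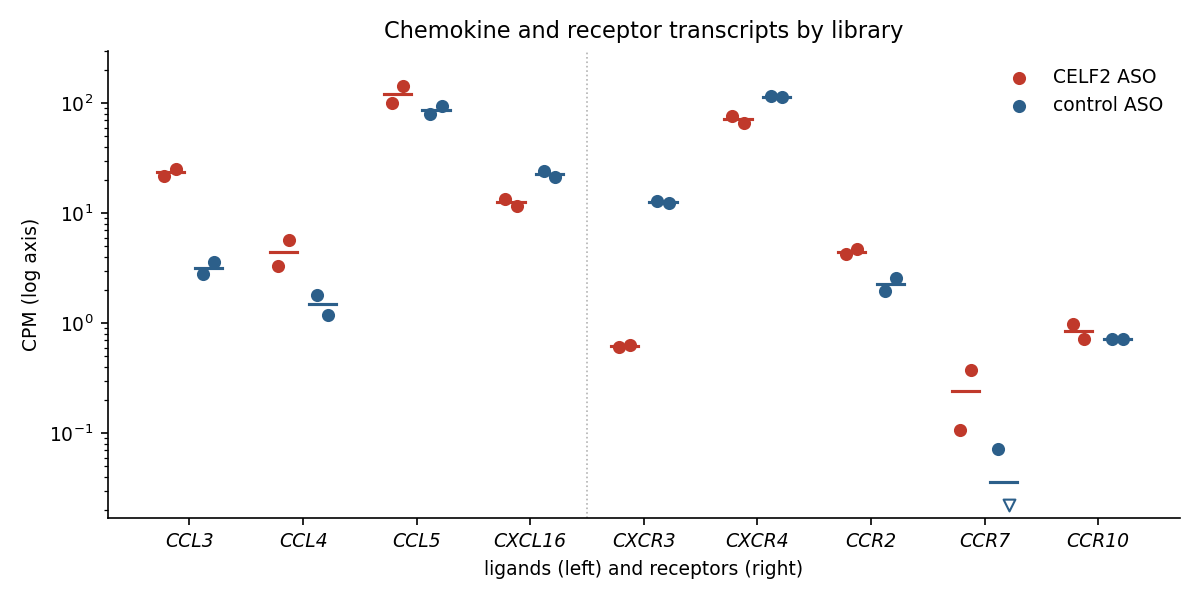
CPM (log axis) of the 9 genes in each library, CELF2 ASO left of control ASO for every gene, with points for libraries and bars for the mean of 2 libraries; the open triangle is a library with 0 counts. CCL3 lies at 21.8 and 25.2 CPM with the CELF2 ASO, above 2.79 and 3.58 with the control ASO, and CXCR3 at 0.613 and 0.628, below 13.0 and 12.4.

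Among the 4 ligands of the 9 genes, CCL3 had the highest fold. CCL3, also known as MIP-1 alpha, attracts monocytes and lymphocytes and stimulates osteoclast formation; its gene (ENSG00000277632) lies on chromosome 17 at 36088256 to 36090169, minus strand (GRCh38, GENCODE 29). It had 604 and 603 counts with the CELF2 ASO, against 78 and 84 counts with the control ASO. Both CELF2 ASO libraries stood far above both control libraries, and the libraries within each group were close together. Mean CPM was 23.5 ± 2.45 with the CELF2 ASO and 3.18 ± 0.561 with the control ASO (SD, n = 2 each), a log2 fold change of 2.89 ± 0.16 (SE), or 7.41-fold.

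CCL4, or MIP-1 beta, is the neighbour of CCL3 and attracts monocytes and lymphocytes; its gene lies at 36103590 to 36105621 on the plus strand of chromosome 17. It had 92 and 135 counts with the CELF2 ASO, against 51 and 28 counts with the control ASO. The groups did not overlap, but both pairs were more spread than those of CCL3. Mean CPM was 4.48 ± 1.65 with the CELF2 ASO and 1.51 ± 0.445 with the control ASO (SD, n = 2 each). This is a log2 fold change of 1.54 ± 0.32 (SE), or 2.91-fold, with a wider error than for CCL3.

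Both genes have near-identical copies on the same chromosome, and reads may have been split between them. The best aligned transcripts of CCL3 and CCL3L3 were 95.7% identical over 778 bases, and those of CCL4 and CCL4L2 were 96.1% identical over 667 bases. CCL3L3 had 45 and 75 counts with the CELF2 ASO, against 6 and 7 counts with the control ASO. It was higher in both CELF2 ASO libraries, 9.15-fold (log2 fold change 3.19 ± 0.47 SE, edgeR adjusted p = 0.000902). CCL4L2 had 8 and 7 counts with the CELF2 ASO and 1 in each control library, too few to test; the ratio of its summed counts, scaled to library size, was 7.48 (95% exact interval 1.74 to 67.4, counting error only). With each copy added to its parent gene, the log2 fold change was 2.92 for CCL3 and 1.60 for CCL4. An antisense gene, AC243829.4, covers 74.6% of the exon bases of CCL3, and the strand setting of the counting is not given in the sources used here. That antisense gene had 1 count in each CELF2 ASO library and 0 in each control library.

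CCL5, or RANTES, which binds CCR1 and CCR3 among others, lies on chromosome 17 at 35871491 to 35880793, minus strand. It had 99.8 and 144 CPM with the CELF2 ASO, against 80.1 and 93.7 CPM with the control ASO. Both CELF2 ASO libraries were above both control libraries, the first of them only by a little. Means were 122 ± 31.6 with the CELF2 ASO and 86.9 ± 9.57 CPM with the control ASO (SD, n = 2 each), a log2 fold change of 0.49 ± 0.19 (SE), and CCL5 was not among the 6 genes that passed. Over 12 alternative fits its log2 fold change ran from 0.18 to 0.74. Of those that kept all 4 libraries, CCL5 did not pass with another scaling, RLE (edgeR adjusted p = 0.0851), or with limma-voom (limma-voom adjusted p = 0.0526). It passed in the rest of them, which is read no further, since CCL5 was chosen on this comparison. The low end, 0.18, was the fit without the second CELF2 ASO library.

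CXCL16 is made as a membrane protein that ADAM10 and ADAM17 can cut to a soluble form, and its receptor is CXCR6; the gene lies on chromosome 17 at 4733526 to 4739922, minus strand. It had 377 and 280 counts with the CELF2 ASO, against 676 and 505 counts with the control ASO. Scaled to library size, these were 13.6 and 11.7 CPM with the CELF2 ASO, against 24.2 and 21.5 CPM with the control ASO. CXCL16 was thus the only one of the 4 ligands that was lower with the CELF2 ASO. The means of 12.7 ± 1.33 and 22.8 ± 1.86 CPM (SD, n = 2 each, CELF2 ASO and control ASO) gave a log2 fold change of -0.85 ± 0.12 (SE), or 1.80-fold lower. It shares 3.0% of its exon bases with MED11 on the other strand, which had 117 and 106 counts with the CELF2 ASO, against 196 and 141 with the control ASO. The receptor CXCR6 had 27 and 22 counts with the CELF2 ASO and 27 and 14 with the control ASO, a log2 fold change of 0.26 ± 0.33 (SE, edgeR adjusted p = 0.540).

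Among the receptors, CXCR3 differed by the highest fold of the 9 genes in either direction. CXCR3 is the receptor for the interferon-induced ligands CXCL9, CXCL10 and CXCL11 and is best known from activated T cells; its gene (ENSG00000186810) lies on chromosome X at 71615916 to 71618517, minus strand. It had 17 and 15 counts with the CELF2 ASO, against 364 and 290 counts with the control ASO. The groups were far apart, and the libraries within each group differed little. Mean CPM was 0.620 ± 0.0105 with the CELF2 ASO and 12.7 ± 0.456 with the control ASO (SD, n = 2 each), a log2 fold change of -4.34 ± 0.19 (SE), or 20.3-fold lower.

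The promoters printed for CXCL9 and CXCL10 belong to 2 ligands that fell along with their receptor. CXCL9 had 14 and 17 counts with the CELF2 ASO, against 118 and 138 counts with the control ASO. It was 8.29-fold lower (log2 fold change -3.05 ± 0.29 SE, edgeR adjusted p = 0.000106), and all CELF2 ASO values lay below all control values. CXCL10 had 68 and 120 counts with the CELF2 ASO, against 216 and 208 counts with the control ASO. It was 2.24-fold lower (log2 fold change -1.16 ± 0.30 SE, edgeR adjusted p = 0.0137). The log2 fold change was -0.71 without the first CELF2 ASO library. It was -1.77, or 3.41-fold lower, without the second, which was the higher of that pair. CXCL11 had 4 and 4 counts with the CELF2 ASO and 4 and 6 with the control ASO, and was not tested.

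Since CXCR3 is also a T cell gene, the markers of T and NK cells are given beside it. Of that list of 12 genes, 6 had at most 3 counts in every library, among them CD3D, CD3G, CD2 and TRAC. The summed level of the list was 68.0 and 40.8 CPM with the CELF2 ASO, against 269 and 267 CPM with the control ASO, and nearly all of it was CD8B. CD8B, a subunit of the CD8 coreceptor, had 1774 and 900 counts with the CELF2 ASO, against 7428 and 6155 with the control ASO (log2 fold change -2.37 ± 0.28 SE, edgeR adjusted p = 0.00274, and 0.0617 with no filter on low counts). Of the 4 genes of the list that were tested, 0 were higher and 2 lower (CD8B and ZAP70).

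CXCR4, the receptor for CXCL12 and the main homing receptor of plasma cells for the bone marrow, lies on chromosome 2 at 136114349 to 136118165, minus strand. It had 2137 and 1595 counts with the CELF2 ASO, against 3255 and 2660 counts with the control ASO. These are 77.1 and 66.8 CPM with the CELF2 ASO, against 116 and 113 CPM with the control ASO. Both CELF2 ASO libraries were lower than both control libraries. The difference was modest in size and small in error, with a log2 fold change of -0.67 ± 0.09 (SE), or 1.60-fold lower (means 71.9 ± 7.28 with the CELF2 ASO and 115 ± 2.07 CPM with the control ASO, SD, n = 2 each).

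The ligand of CXCR4 fell as well, and the atypical receptor for the same ligand rose. CXCL12 had 30.9 and 31.9 CPM with the CELF2 ASO, against 55.5 and 53.7 CPM with the control ASO, or 1.74-fold lower (log2 fold change -0.80 ± 0.08 SE, edgeR adjusted p = 0.000121). ACKR3, which takes up CXCL12 and CXCL11, had 148 and 157 counts with the CELF2 ASO, against 28 and 17 counts with the control ASO. This is 6.78-fold higher (log2 fold change 2.76 ± 0.24 SE, edgeR adjusted p = 7e-05).

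CCR2, the receptor that draws monocytes towards CCL2, lies on chromosome 3 at 46353734 to 46360928, plus strand. It had 117 and 112 counts with the CELF2 ASO, against 55 and 60 counts with the control ASO. Both CELF2 ASO libraries were higher, and each pair was tight. Mean CPM was 4.45 ± 0.332 with the CELF2 ASO and 2.26 ± 0.419 with the control ASO (SD, n = 2 each), a log2 fold change of 0.98 ± 0.20 (SE), or 1.98-fold. Its main ligand, CCL2, had 33 and 41 counts with the CELF2 ASO and 30 and 17 with the control ASO. The log2 fold change of CCL2 was 0.66 ± 0.33 (SE) and did not pass (edgeR adjusted p = 0.119). Leaving out a library, it ran from 0.37 (without the second CELF2 ASO library) to 0.96 (without the first control library).

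CCR7, which guides lymphocytes into lymph nodes, lies on chromosome 17 at 40553769 to 40565472, minus strand, and was barely detected. It had 3 and 9 counts with the CELF2 ASO, against 2 and 0 counts with the control ASO, and fell under the filter on low counts. The CELF2 ASO libraries were the higher ones, on 12 counts in all against 2. The ratio of the sums, scaled to library size, was 5.98 (95% exact interval 1.33 to 55.0, counting error only, with the spread between libraries left out). Of its ligands, CCL19 had 0 and 1 counts with the CELF2 ASO, against 8 and 4 with the control ASO, a scaled ratio of 0.0831 (95% exact interval 0.00194 to 0.561, counting error only). CCL21 had 1 and 0 counts with the CELF2 ASO and 0 in both control libraries.

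CCR10, which brings antibody-secreting cells to mucosa and skin, lies on chromosome 17 at 42678889 to 42683917, minus strand. It had 27 and 17 counts with the CELF2 ASO, against 20 and 17 counts with the control ASO. The groups overlapped, with 0.974 and 0.711 CPM with the CELF2 ASO, against 0.715 and 0.724 CPM with the control ASO. The log2 fold change was 0.24 ± 0.32 (SE), smaller than its error. Of its exon bases, 14.5% are shared with CNTNAP1 on the opposite strand, which had 279 and 196 counts with the CELF2 ASO, against 67 and 54 with the control ASO. What share of CCR10 counts could come from that gene was not tested. Its ligand CCL28 had at most 1 count in any library, and CCL27 was listed at 0. Of the exon bases of CCL27, 97.7% are shared with AL162231.4 on the same strand, also listed at 0, so reads of CCL27 may not have been assigned.

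The other members of the family moved in both directions. The table holds 61 ligand, receptor and atypical receptor genes besides the 9, of which 17 had at least 10 counts in a library and 14 were tested. Of these 14, 2 were higher (CCL3L3 and ACKR3) and 5 were lower (CXCL9, CXCL10, CXCL12, CCL22 and CX3CR1) with the CELF2 ASO, which is 50.0% and near the 55.5% of all genes tested. Their median log2 fold change was 0.20, and in 12 of the 14 the groups did not overlap, as in 79.6% of all genes tested.

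CCL22, a ligand of CCR4 that attracts regulatory T cells, had 4 and 11 counts with the CELF2 ASO, against 47 and 44 counts with the control ASO. It was 5.98-fold lower (log2 fold change -2.58 ± 0.43 SE, edgeR adjusted p = 0.00171), and 3.81-fold or 12.0-fold lower without the first or without the second CELF2 ASO library. CX3CR1, the fractalkine receptor, was among the most abundant receptors and had 264 and 334 CPM with the CELF2 ASO, against 455 and 442 CPM with the control ASO. It was 1.50-fold lower (log2 fold change -0.59 ± 0.11 SE, edgeR adjusted p = 0.00323), while its ligand CX3CL1 was listed at 0.

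CCR1, a receptor for CCL3 and CCL5, and CCR3, a receptor for CCL5, did not pass. CCR1 had 242 and 315 CPM with the CELF2 ASO, against 230 and 232 CPM with the control ASO, so that the difference came mainly from the second CELF2 ASO library (log2 fold change 0.27 ± 0.12 SE, edgeR adjusted p = 0.0900, and 0.05 on the log2 scale without that library). CCR3 had 776 and 985 counts with the CELF2 ASO and 647 and 631 with the control ASO (log2 fold change 0.47 ± 0.18 SE, edgeR adjusted p = 0.0686, and 0.15 on the log2 scale without the second CELF2 ASO library). CCR1 lies within the span of CCR3 on the opposite strand, with no exon bases shared in GENCODE 29.

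The remaining genes of the family with at least 10 counts in a library were low. CCL1 had 25 and 16 counts with the CELF2 ASO and 24 and 13 with the control ASO (log2 fold change 0.15 ± 0.36 SE, edgeR adjusted p = 0.754). XCR1, the receptor for the XCL chemokines, had 11 and 9 counts with the CELF2 ASO and 19 and 12 with the control ASO (log2 fold change -0.63 ± 0.38 SE, edgeR adjusted p = 0.193). CCRL2, which presents chemerin to other cells, had 16 and 11 counts with the CELF2 ASO and 9 and 6 with the control ASO (log2 fold change 0.83 ± 0.41 SE, edgeR adjusted p = 0.120). None of these 3 passed the test. The atypical receptor ACKR2, a scavenger of inflammatory CC chemokines, had 5 and 11 counts with the CELF2 ASO, against 1 and 0 with the control ASO, and was too low to test. ACKR4, which takes up CCL19 and CCL21, had 10 and 6 counts with the CELF2 ASO, against 3 and 3 with the control ASO. PITPNM3 had 17 and 8 with the CELF2 ASO, against 8 and 7 with the control ASO, and both genes were untested. Of the exon bases of ACKR4, 4.5% are shared with ACAD11 on the opposite strand. ACAD11 had 57 and 39 counts with the CELF2 ASO, against 15 and 13 with the control ASO. What share of ACKR4 counts could come from ACAD11 was not tested. Of the 46 ligand genes in the table, 16 were listed at 0 in every library, as were the receptors CCR6, CXCR1 and CXCR5 and the atypical receptor ACKR1. In GENCODE 29, 88.6% of the exon bases of CXCR5 are shared with BCL9L on the opposite strand and 69.2% of those of CCR6 with Z94721.2 on the same strand, so reads there may not have been assigned.

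Levels were compared between genes as CPM per kb of exon. Among the 11 ligands tested, CCL5 was highest in both groups, at 80.7 CPM per kb with the CELF2 ASO and 57.5 with the control ASO. CCL3 was second with the CELF2 ASO at 15.7 CPM per kb, and at 2.13 with the control ASO it came behind CCL5, CXCL12 (8.99), CXCL16 (8.17) and CXCL10 (7.05). In the control group, the ranges of CCL3 and of the next gene, CXCL9, overlapped. CXCL16 stood at 4.53 CPM per kb with the CELF2 ASO, where its range overlapped that of CXCL10. CCL4 stood at 2.21 CPM per kb with the CELF2 ASO, its range overlapping those of both its neighbours in the order, CXCL10 and CCL3L3, and at 0.742 with the control ASO, overlapping CCL22.

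Among the receptors, CCR1 and CX3CR1 were highest in both groups, with overlapping ranges with the CELF2 ASO (102 and 81.8 CPM per kb) and with CX3CR1 the higher of the pair with the control ASO (123 and 84.6 CPM per kb for CX3CR1 and CCR1). CXCR4 was next in both groups, at 32.3 CPM per kb with the CELF2 ASO and 51.6 with the control ASO, apart from its neighbours. CXCR3 was at 0.332 CPM per kb with the CELF2 ASO, where its range overlapped that of CCR10 (0.322), and at 6.79 with the control ASO, where its range overlapped that of CCR3 (7.01). CCR2 stood at 1.19 CPM per kb with the CELF2 ASO and 0.606 with the control ASO, in both groups apart from its neighbours. The order of the receptors differed between the groups in 2 swaps of neighbours, CCR1 with CX3CR1 and CCR2 with CXCR3.

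**Figure D2:**
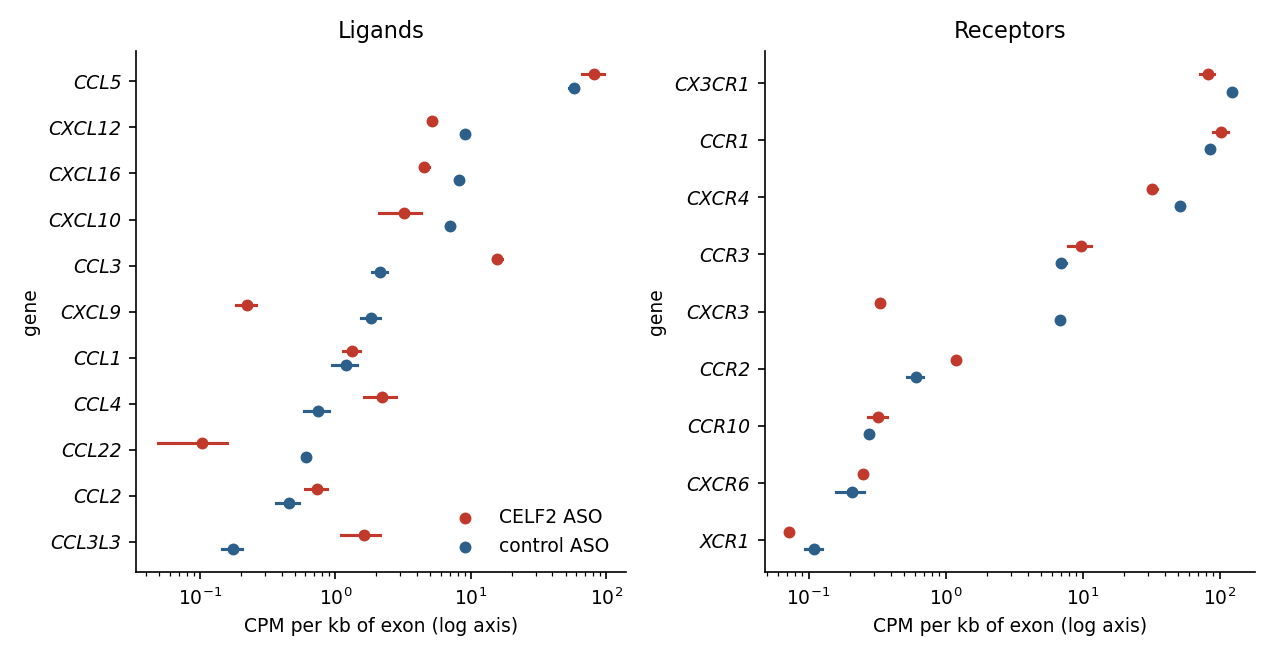
CPM per kb of exon (log axis) of the ligands and receptors tested, with the mean of 2 libraries as a point and both libraries as the ends of the line, CELF2 ASO above control ASO for every gene. CCL5 leads the ligands in both groups, at 80.7 and 57.5 CPM per kb, and CXCR3 has the widest gap between groups among the receptors, at 0.332 and 6.79.

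Genes that act with chemokine receptors were read from 4 lists, each to be set against the 27.5% of all genes tested that were higher and the 27.9% that were lower. Of 28 tested genes of receptor signal transduction (31 listed), 4 rose and 13 fell. Their median log2 fold change was -0.35. JAK3, a kinase of the common gamma chain cytokine receptors that also acts in chemokine signalling, rose 2.29-fold, with 4.62 and 4.98 CPM with the CELF2 ASO, against 1.82 and 2.39 CPM with the control ASO (edgeR adjusted p = 0.00177). TIAM1, an activator of RAC1, was 2.60-fold higher, on 12 and 17 counts with the CELF2 ASO and 5 and 6 with the control ASO (edgeR adjusted p = 0.0419). That call was lost in 6 alternative fits, with adjusted p up to 0.285. The GTPase RAC1, which drives the leading edge of a migrating cell, fell 1.61-fold, with 156 and 159 CPM with the CELF2 ASO, against 262 and 247 CPM with the control ASO (edgeR adjusted p = 0.00018). PLCB3, a phospholipase that G proteins activate, fell 1.79-fold, with 23.7 and 22.4 CPM with the CELF2 ASO, against 40.6 and 41.8 CPM with the control ASO (edgeR adjusted p = 0.000168).

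The list for receptor desensitization held 17 genes. It has ITCH and CD164 beside RGS proteins, receptor kinases and arrestins, and so is not limited to genes that switch receptors off. Of its 15 tested genes, 6 rose and 5 fell, the median on the log2 scale being -0.18. RGS proteins shorten G protein signals. RGS3 rose 7.75-fold, with 39.1 and 43.0 CPM with the CELF2 ASO, against 5.57 and 4.99 CPM with the control ASO (edgeR adjusted p = 5.24e-06). RGS1 rose 3.95-fold, on 24 and 32 counts with the CELF2 ASO and 7 and 7 with the control ASO (edgeR adjusted p = 0.00462). RGS16 rose 1.89-fold, with 101 and 103 CPM with the CELF2 ASO, against 51.3 and 56.7 CPM with the control ASO (edgeR adjusted p = 7.25e-05). RGS19 moved the other way and fell 2.67-fold, with 8.36 and 7.03 CPM with the CELF2 ASO, against 20.1 and 21.1 CPM with the control ASO (edgeR adjusted p = 8.64e-05). Both beta-arrestins, which uncouple and internalise receptors, fell. ARRB1 was 4.38-fold lower, with 1.23 and 0.753 CPM with the CELF2 ASO, against 4.54 and 4.26 CPM with the control ASO (edgeR adjusted p = 0.000313). ARRB2 was 1.64-fold lower, with 31.3 and 33.0 CPM with the CELF2 ASO, against 52.5 and 53.1 CPM with the control ASO (edgeR adjusted p = 0.000215).

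Of 4 tested processing enzymes (8 listed), 1 rose and 2 fell (median log2 fold change -0.34). ADAM17, one of the proteases that release CXCL16 and other membrane proteins, rose 2.60-fold, with 84.2 and 106 CPM with the CELF2 ASO, against 36.0 and 37.0 CPM with the control ASO (edgeR adjusted p = 5.74e-05). ADAM10, the other such protease, had 289 and 271 CPM with the CELF2 ASO and 267 and 274 CPM with the control ASO, and the groups overlapped (log2 fold change 0.05 ± 0.07 SE, edgeR adjusted p = 0.602). The tyrosylprotein sulfotransferases modify the outer ends of chemokine receptors. TPST2 fell 3.07-fold, with 13.8 and 12.0 CPM with the CELF2 ASO, against 39.1 and 40.2 CPM with the control ASO (edgeR adjusted p = 2.19e-05). TPST1 was 1.66-fold lower, on 55 and 31 counts with the CELF2 ASO and 79 and 63 with the control ASO (edgeR adjusted p = 0.0392, and up to 0.105 in the 4 alternative fits in which it did not pass).

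Of 7 tested homing and coreceptor genes (10 listed), 3 rose and 2 fell (median log2 fold change 0.40). CD74, the invariant chain that also pairs with CXCR4 as a receptor for MIF, rose 3.40-fold, with 559 and 631 CPM with the CELF2 ASO, against 160 and 190 CPM with the control ASO (edgeR adjusted p = 1.75e-05). MIF itself was listed at 0, and whether its reads could have been assigned was not tested. S1PR1, the receptor by which lymphocytes leave tissue, was 2.97-fold higher, on 16 and 23 counts with the CELF2 ASO and 8 and 5 with the control ASO (edgeR adjusted p = 0.0198, and up to 0.133 in the 3 alternative fits in which it did not pass). HMGB1, a nuclear protein that binds CXCL12 once released, fell 1.53-fold, with 133 and 133 CPM with the CELF2 ASO, against 200 and 207 CPM with the control ASO (edgeR adjusted p = 0.000269). ITGA4, an integrin subunit that holds plasma cells to marrow stroma, fell 1.47-fold, with 31.1 and 25.7 CPM with the CELF2 ASO, against 43.0 and 40.6 CPM with the control ASO (edgeR adjusted p = 0.00383). Of all 68 tested genes of the chemokine system other than the 9, 43 passed (16 higher and 27 lower), or 63.2%, against 55.5% of all genes.

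**Figure D3:**
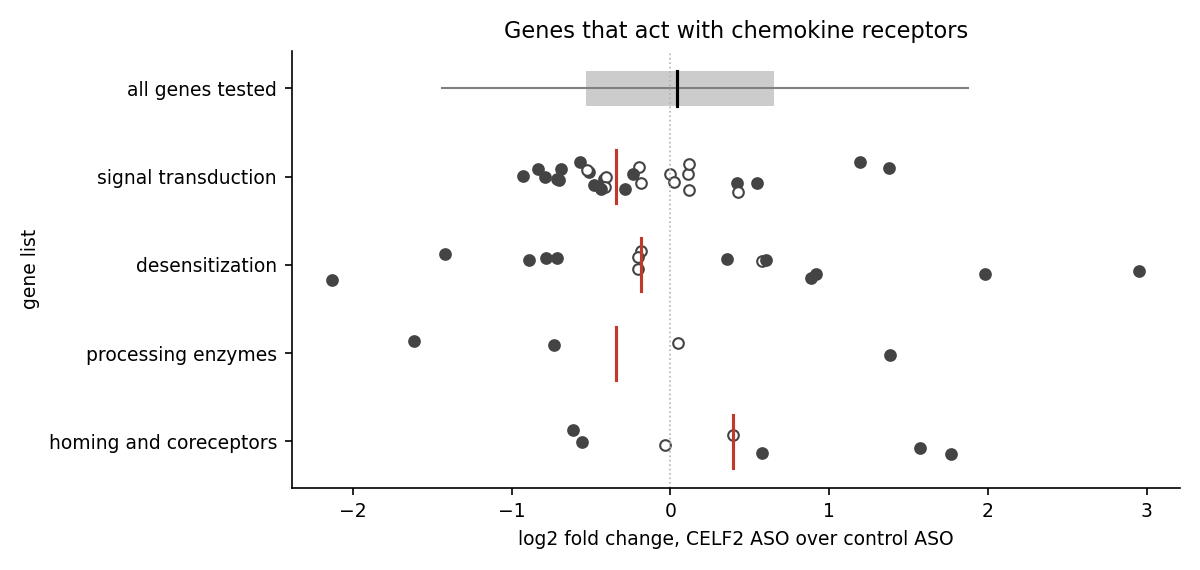
log2 fold change, CELF2 ASO over control ASO, of each tested gene in 4 lists (points, filled where adjusted p was under 0.05, with the list median as a red line) and, on top, of all genes tested (bar for the quartiles -0.53 to 0.65, line for the 5th and 95th percentiles -1.44 to 1.88, median as a black tick). The list medians run from -0.35 for signal transduction to 0.40 for homing and coreceptor genes, all within the quartiles of all genes.

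The genes whose 4 log2 CPM values, centred on their mean, lay nearest to those of CCL3 among 11941 genes were PIERCE2, PSAP and ADA2, at Euclidean distances of 0.151, 0.161 and 0.163. PIERCE2 had 10.6 and 14.0 CPM with the CELF2 ASO, against 1.50 and 1.79 CPM with the control ASO. Those nearest to CXCR4 were BANP, NDUFB11 and NOL9, at distances of 0.015, 0.016 and 0.016. BANP had 20.7 and 17.8 CPM with the CELF2 ASO, against 31.5 and 30.4 CPM with the control ASO. These distances rest on 4 libraries in 2 groups.

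The cells carried plasma cell markers in both groups. All 10 plasma cell markers had counts, and their summed level was 3861 and 3311 CPM with the CELF2 ASO, against 3167 and 3380 CPM with the control ASO, with 3 higher and 4 lower of 9 tested. The sum covers changes in both directions. CD38 was 2.43-fold higher (edgeR adjusted p = 0.00176), while SDC1, the surface marker CD138, was 2.34-fold lower (edgeR adjusted p = 0.0121) and TNFRSF17, or BCMA, 2.00-fold lower (edgeR adjusted p = 0.0445). Their CELF2 ASO libraries were spread, at 175 and 254 CPM for CD38, 248 and 154 for SDC1 and 58.6 and 33.4 for TNFRSF17. IRF4, the largest part of the sum, was 1.71-fold higher and SLAMF7 1.41-fold higher. PRDM1 was 1.86-fold lower and MZB1 1.37-fold lower. The earlier B cell markers summed to 105 and 74.7 CPM with the CELF2 ASO, against 77.5 and 75.3 CPM with the control ASO, with 4 higher and 2 lower of 7 tested. Within that sum, CD79B, a subunit of the B cell receptor, had 60 and 46 counts with the CELF2 ASO, against 1 and 1 with the control ASO. CD22 had 14 and 14 counts with the CELF2 ASO and 0 in both control libraries. FCER2 was 5.05-fold higher (edgeR adjusted p = 0.00232), at 38.8 and 21.6 CPM with the CELF2 ASO, against 5.54 and 6.48 CPM with the control ASO. The 2 lower genes were BLNK, 1.31-fold lower (edgeR adjusted p = 0.0218), and CR2, 1.57-fold lower (edgeR adjusted p = 0.0149). PAX5 did not pass (edgeR adjusted p = 0.0823). Myeloid markers, given because CCL3, CCR1 and CX3CR1 are also myeloid genes, were low at 4.04 and 4.14 CPM with the CELF2 ASO, against 8.43 and 9.42 CPM with the control ASO, with 0 higher and 3 lower of 4 tested. S100A9 had 2 and 0 counts with the CELF2 ASO, against 40 and 36 with the control ASO. FCGR1A had 17 and 18 counts with the CELF2 ASO, against 87 and 81 with the control ASO, and CD14 had 29 and 33 with the CELF2 ASO, against 67 and 52 with the control ASO. CSF1R, the one tested that did not pass, had 36 and 31 counts with the CELF2 ASO and 29 and 28 with the control ASO, and LYZ and S100A8 were listed at 0. The calls of the markers in this paragraph are from the main fit only and were not followed through the alternative fits. The part of these marker lists in the differences of the 9 genes was not tested.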

How the data were processed

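RNA-seq was analysed from 1 deposited table of read counts for 4 libraries (2 CELF2 LNA ASO, 2 control LNA ASO). The submitters' processing notes list featureCounts 2.0.8, Salmon 1.10.0, STAR 2.7.11b, bcl2fastq and Subread, with GRCh38 as the build; which of them made the counts, and with which strand setting, is not given in the sources used here. Per the labels, reads were paired and 150 bases long; the series text names poly(A) selection, whereas the sample protocol names RNase-H removal of ribosomal RNA with random hexamers. The authors deposited raw counts per gene, with no normalization; total counts per library were 23599190 to 29161298.

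Of 79029 rows, 97 with no Ensembl identifier (1 to 3 counts in a library) were left out. Genes were filtered with edgeR's filterByExpr (10 counts, 15 in total), scaled by TMM and tested with edgeR 4.0.16 (quasi-likelihood, robust, two-sided, no covariate, R 4.3.3), with Benjamini-Hochberg adjustment over all 19511 genes and a threshold of 0.05. SE is the log2 fold change divided by the root of F. CPM uses TMM library sizes; length is the exon union of GENCODE 29. Intervals are exact (Clopper-Pearson, 95%) and cover counting error only. RefSeq promoters reach from 250 bases before to 50 after a start. The fit was tested on simulated data. It recovered 14 of 67 genes changed 1.5-fold, 38 of 67 changed 2-fold and 60 of 66 changed 4-fold. Beside those 14, 38 and 60 genes, it called 16 unchanged ones. Those data held 18802 genes, and no others were changed. Recovery where as many as 55.5% of genes pass, the share in the main fit, was not tested. With library totals in place of TMM, the median log2 fold change of all genes was 0.1586, against 0.04273 with TMM, so changes are relative to TMM.

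The genes and lists were chosen with earlier results of these data known. Named were the 9 genes, the family's other genes with at least 10 counts in a library, in each further list those past the threshold with at least 2-fold and up to 2 more by adjusted p, CELF2, and the 3 genes most like CCL3 and CXCR4 (mean log2 CPM of at least 1). Same-numbered libraries did not deviate together (r = 0.03427 over genes, 2 pairs), so numbers were not taken as pairs. Alternatives were other scalings, filters, DESeq2 1.42.0, limma-voom 3.58.1, a replicate block, copies summed and leaving out each library. Their values were taken for the named genes that were tested and for CD8B. They were not taken for the genes most like CCL3 and CXCR4 or for the other markers.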

Additional observations from a re-analysis of the deposited data

How the results depend on the processing

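With 2 libraries a group, each fit without a library takes its spread from the remaining pair. Genes called numbered 10823, and 8602 to 12189 leaving out 1 library, 8725 with DESeq2, 11536 with no filter and 10809 with the replicate block. With library totals alone, 6299 were higher and 4530 lower, against 5372 and 5451 with TMM. Of the 9 genes, 6 or 7 were called in the alternative runs that kept all 4 libraries, the seventh being CCL5. Of the other chemokine system genes, 36 (DESeq2) to 52 (no filter) were called in those runs. The replicate block pairs libraries by the number in their titles, although the labels do not say that this number pairs them. That fit gave 7 and 44, and added CCL5 and CCR3 (edgeR adjusted p = 0.0108 for CCR3). No member has more than 1 entry, so summing entries changed nothing.

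Over 42 named genes and 498 alternative values, 459 kept direction and call, 20 gained the call, 14 lost it and 5 changed sign, all of genes that did not pass. Leaving out a library, log2 fold changes ran from -0.01 to 0.42 for CCR10, -0.14 to 0.48 for CCL1 (-0.09 without CELF2 ASO replicate 1) and -0.05 to 0.64 for CXCR6; ADAM10 was -0.01 with no filter. The cause was not tested. CCR1 passed with library totals (adjusted p = 0.0208), with no filter (0.0364) and without CELF2 ASO replicate 1. CCR3 also passed with library totals (0.024), no filter, a filter of 1 CPM in 2 libraries (0.0487), limma-voom group weights (0.0461), and without control replicate 2 (0.0117) or CELF2 ASO replicate 1. CCR7 was left out by the filter on low counts; with no filter it was fitted and not called.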
